A study of Mus musculus with 26 samples.

Results

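Protein kinase A (PKA) is the kinase that cyclic AMP (cAMP) switches on, and the genes described here are its subunits in the mouse: the catalytic subunits Prkaca and Prkacb, the type I regulatory subunits Prkar1a and Prkar1b, and the type II regulatory subunits Prkar2a and Prkar2b. They were chosen by gene symbol and not by any measured value, although earlier results of these data were known. All 6 were listed in each of 3 tables of striatal ribosome profiling. The G2019S (GS) LRRK2 TG table and the G2019S/D1994A (GS/DA) LRRK2 TG table each hold 8553 gene symbols in 8576 transcripts, and the LRRK2 KO table holds 9535 symbols in 9561 transcripts. In the inactive enzyme a dimer of regulatory subunits binds and blocks the catalytic subunits, and cAMP bound to the regulatory subunits sets the catalytic subunits free to phosphorylate their targets. The regulatory subunits also dock on A-kinase anchoring proteins, which hold the enzyme at particular places in the cell. In the striatum, PKA carries the signal of dopamine D1 and adenosine A2a receptors, which raise cAMP through a stimulatory G protein and adenylyl cyclase, to substrates such as DARPP-32, the product of Ppp1r1b.

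The labels give C57BL/6 mice, an age of 3 months and striatum as the tissue, which the authors describe as caudate putamen of slightly wider age, pooled from 3 mice of both sexes per sample. The TG mice carry tet-LRRK2 transgenes switched on by tTA under the CaMKII promoter, which is active in forebrain neurons, with doxycycline withdrawn after weaning. GS LRRK2 TG carries the G2019S allele found in Parkinson's disease, GS/DA LRRK2 TG adds the D1994A change that removes kinase activity, and both were compared with non-TG control mice without LRRK2 transgene expression. LRRK2 KO mice, which lack a functional Lrrk2 gene, were compared with WT mice. The labels give ribosome footprinting of 3 non-TG control, 2 GS LRRK2 TG, 2 GS/DA LRRK2 TG, 3 WT and 3 LRRK2 KO samples, and RNA-Seq of 3, 2, 2, 2 and 2 samples of these groups. The GS and GS/DA comparisons draw on the same listed control samples, so their values stand side by side below and are not 2 independent results. Which of these samples each control mean averages is not stated, and the 2 means are not a rescaled copy of each other: Lrrk2 has 2524 control footprints in the GS table and 1335 in the other, and Prkar2b has 2823 and 3606. The question put to each comparison is how the ribosome load and the mRNA of the PKA subunits differ with a kinase-active LRRK2 transgene, with a kinase-dead transgene, or without LRRK2.

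The deposited values are group means of reads in coding sequence (CDS), normalized by the authors with DESeq in each table separately, so a level is compared only within a table. TE is the ratio of the footprinting mean to the RNA-Seq mean, and a TE difference is the log2 ratio of TE in a genotype to TE in its control. For 10 of the 12 columns of group means, the means could be split into whole read counts of 2 libraries, which are called the deeper and the shallower library here by their size factors. These 20 libraries held between 2863332 and 15954039 reads in CDS. The 2 columns of non-TG control means in the GS LRRK2 TG table could not be split, so that comparison has group means without a test. The Prkar1a footprinting means of the GS/DA LRRK2 TG table fitted more than 1 pair of read counts, so 5 of the 6 subunits could be tested there and all 6 in the LRRK2 KO table. Among the resolved libraries Prkar2a had between 83 and 820 reads per library, and the other subunits had between 434 and 14410.

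Lrrk2 itself served as a check of the labels. In the GS/DA LRRK2 TG table its footprinting values were 1445 and 1224 for non-TG control and 7267 and 4766 for GS/DA LRRK2 TG, with a log2 difference of 2.17 from the group means. In the GS LRRK2 TG table the footprinting mean was 2524 in non-TG control and 5186 in GS LRRK2 TG. The GS LRRK2 TG libraries stood apart (3320 and 7052), both above the control mean. In the LRRK2 KO table the footprinting values were 400.3 and 690.1 in WT and 102 and 149.7 in LRRK2 KO, with a log2 difference of −2.12. The Lrrk2 footprints were thus higher in both TG groups and lower in LRRK2 KO, as labelled, and the resolved groups did not overlap. In RNA-Seq this held for LRRK2 KO only, with 1278 and 733 in WT against 423 and 270.02. The RNA-Seq means of Lrrk2 were lower in both TG groups, with log2 differences of −0.16 (GS) and −0.09 (GS/DA). The GS libraries (3550 and 214) lay on either side of their control mean (2105). The GS/DA libraries (404 and 5038) overlapped their control (5233 and 560.2). The check of the TG labels therefore covers footprinting, and TE uses RNA-Seq as well.

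The subunit genes lie on different chromosomes of the mouse genome (mm9): Prkacb at chr3:146392543-146475924 on the minus strand, Prkar1b at chr5:139493260-139625955 (minus), Prkaca at chr8:86496877-86520344 (plus), Prkar2a at chr9:108594474-108651843 (plus), Prkar1a at chr11:109510719-109530970 (plus) and Prkar2b at chr12:32643341-32746161 (minus). The listed transcripts were uc009mll.2 for Prkaca, uc008rrs.2 for Prkacb, uc007mct.1 for Prkar1a, uc009afy.2 for Prkar1b, uc009rqt.1 for Prkar2a and uc007nhx.1 for Prkar2b. The union of annotated CDS was 1075 bases for Prkaca, 1267 for Prkacb, 1606 for Prkar1a, 1143 for Prkar1b, 1352 for Prkar2a and 1248 for Prkar2b. The GC content of the CDS ran from 49.6% in Prkar2a and 50.1% in Prkacb through 51.0% in Prkar1a, 51.2% in Prkar2b and 52.8% in Prkaca to 54.9% in Prkar1b. No CDS base of any subunit lay inside the CDS of another annotated gene.

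Subunits of a class are paralogs, and footprints are short, so shared stretches of CDS bear on how reads are assigned. Prkaca and Prkacb were identical at 844 of 1056 aligned CDS bases (79.9%), Prkar1a and Prkar1b at 853 of 1144 (74.6%), and Prkar2a and Prkar2b at 845 of 1203 (70.2%), while a type I and a type II subunit shared between 53.8% and 58.3%. The longest run shared within a pair was 34 bases for the catalytic subunits, 17 for type I and 36 for type II. The sequences below show the runs of the catalytic and the type II pair as they lie in the genome (mm9), with the shared run of each pair in capitals and flanking CDS in lower case. For the catalytic pair, the part of the run inside 1 exon (32 bases) is shown. They lie at chr8:86505158-86505199 (plus strand), chr3:146418596-146418637 (minus), chr9:108594791-108594846 (plus) and chr12:32745892-32745947 (minus).
Prkaca: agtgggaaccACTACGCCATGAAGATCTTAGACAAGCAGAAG
Prkacb: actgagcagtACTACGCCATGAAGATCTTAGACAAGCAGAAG
Prkar2a: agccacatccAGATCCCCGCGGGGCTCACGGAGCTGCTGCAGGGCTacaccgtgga
Prkar2b: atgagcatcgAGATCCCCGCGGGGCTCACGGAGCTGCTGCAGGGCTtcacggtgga

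Of the windows of 28 bases, the size of a footprint, 97 of 1029 in the Prkaca CDS (9.43%) also occurred elsewhere in the genome or in another CDS: 88 in the pseudogene Prkaca-ps1 at chrX:157923499-157924321, 7 in Prkacb and 2 outside any annotated gene. The other subunits had few such windows: 7 of 1170 in Prkacb (0.598%), 9 of 1182 in Prkar2a (0.761%), 9 of 1224 in Prkar2b (0.735%), and 0 in Prkar1a and Prkar1b. Most of the CDS of each subunit can therefore be told apart from its paralogs with an exact footprint-sized read, and how the authors' alignment treated the shared windows was not tested. That alignment allowed 1 mismatch, and windows that occur elsewhere with 1 mismatch were not counted.

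The RNA-Seq libraries of the TG tables stood apart from each other within each group, and this bears on every RNA-Seq and TE value of the subunits. Over all transcripts the SD of the log2 ratio of the deeper to the shallower library was 1.79 for GS LRRK2 TG RNA-Seq, 1.498 for non-TG control RNA-Seq and 1.75 for GS/DA LRRK2 TG RNA-Seq, against 0.411, 0.342 and 0.337 for footprinting of the same groups. The ratio went with the GC content of the CDS, with Spearman's rho of −0.794, −0.781 and 0.804 across transcripts in the 3 RNA-Seq groups (transcripts are not independent replicates), and of 0.305, −0.436 and −0.469 in their footprinting. In the LRRK2 KO table the SDs were 0.683 for WT RNA-Seq and 0.642 for LRRK2 KO RNA-Seq, with rho of −0.038 and −0.272. Its footprinting libraries stood further apart than those of the TG tables, with SDs of 0.733 for WT and 0.740 for LRRK2 KO and rho of 0.541 and 0.234.

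Of the subunits, 5 stood apart between the RNA-Seq libraries of these groups, Prkar2b most of all. Its RNA-Seq level was 2317 and 608 in the deeper and the shallower GS LRRK2 TG library, 3191 and 1086 in the non-TG control libraries, and 863 and 3958 in those of GS/DA LRRK2 TG. The libraries of a group thus differed 3.81-fold, 2.94-fold and 4.59-fold for Prkar2b mRNA, and the side with the high value was reversed in GS/DA LRRK2 TG. Prkacb and Prkar2a lay on the same side as Prkar2b in these 3 groups, with log2 ratios of 1.35, 1.12 and −1.42 for Prkacb and of 1.47, 1.08 and −1.49 for Prkar2a. Prkaca (−0.75, −0.92 and 0.84) and Prkar1b (−0.84, −0.99 and 0.95) lay on the opposite side, and Prkar1a was nearest to equal (−0.14, −0.30 and 0.08), on the opposite side from transcripts of like GC content (medians 0.58, 0.49 and −0.58). The median of transcripts in the same bin of GC content was 0.38 for Prkar2b in GS LRRK2 TG against its own ratio of 1.93, so Prkar2b differed more between libraries than transcripts of like GC content. In the LRRK2 KO table the subunits' RNA-Seq log2 ratios stayed between −0.82 (Prkar1b, WT) and 0.30 (Prkar2b, LRRK2 KO). Whether the library difference enters the group comparisons of the subunits was examined by leaving out libraries; its cause was not tested.

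**Figure D1:**
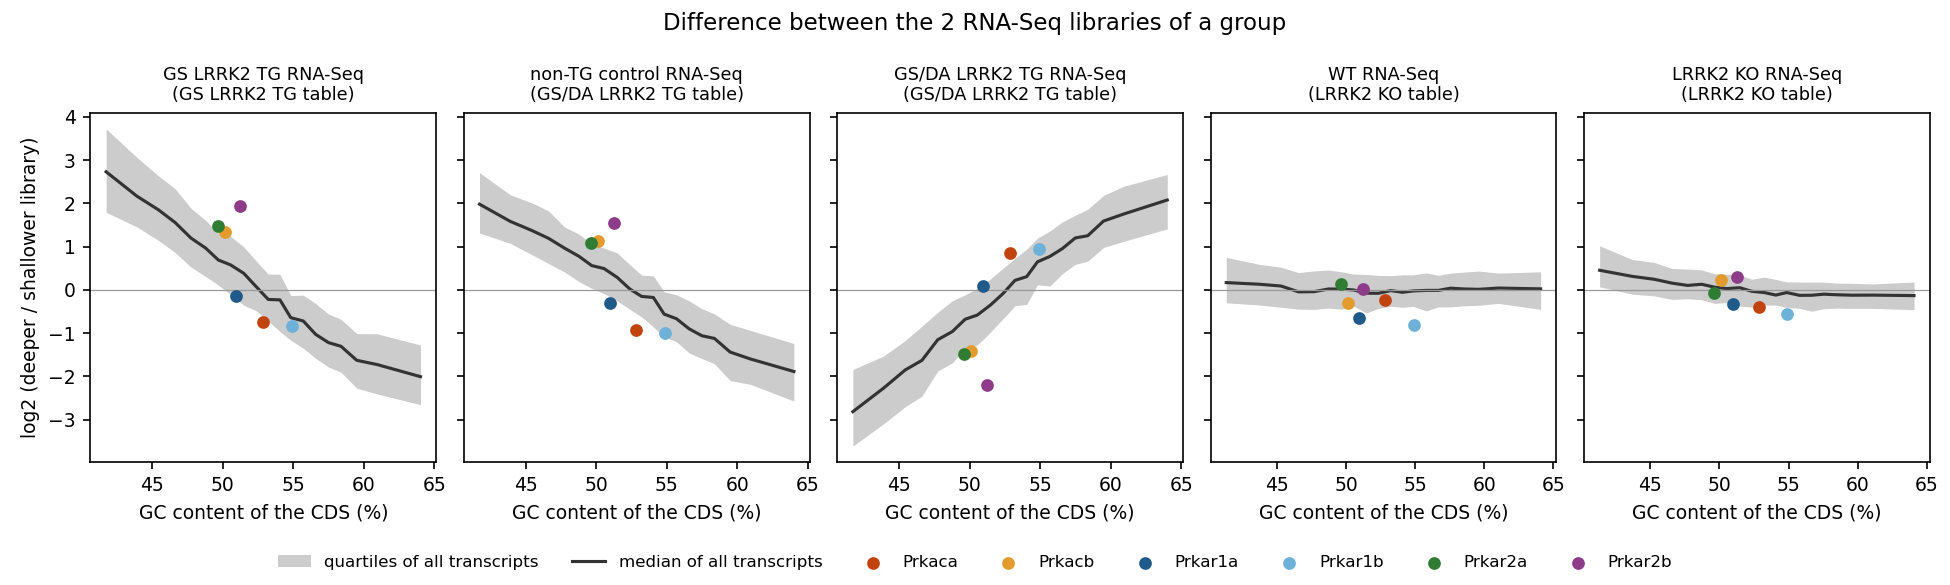
Log2 ratio of the deeper to the shallower RNA-Seq library of a group (vertical axis) by the GC content of the CDS in percent (horizontal axis), with the median (line) and quartiles (grey) of all transcripts in 20 bins and the 6 PKA subunits as coloured points. In the 3 groups of the TG tables Prkar2b, Prkacb and Prkar2a sit on 1 side of 0 and Prkaca and Prkar1b on the other, and the sides are exchanged in GS/DA LRRK2 TG.

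Per kilobase of CDS, the subunits of the non-TG control striatum spanned a wide range of ribosome load. In the footprinting means of the GS/DA LRRK2 TG table, Prkar1a had 9224 normalized reads per kilobase, Prkacb 7620.2 (7403 and 7838 in its libraries), Prkar1b 6897 (6931 and 6862), Prkaca 3962 (4045 and 3879), Prkar2b 2889 (3125 and 2654) and Prkar2a 353 (394 and 313). No neighbours in this order of the 5 resolved subunits overlapped, and for Prkar1a only the mean is known. The non-TG control footprinting means of the GS LRRK2 TG table gave the same order, from 7468 for Prkar1a through 5962, 5769.7, 3133 and 2262 to 282 for Prkar2a. In WT footprinting the order at the top was not resolved: Prkar1a (2837 and 2870.4), Prkar1b (2839 and 2538) and Prkacb (2000.01 and 2857) overlapped, above Prkaca (1239 and 1402), Prkar2b (641 and 920.2) and Prkar2a (87.0 and 120.2), which did not overlap each other. With the length of the reference CDS, which is 1146 bases in Prkar1a, the Prkar1a level becomes higher and the order of the non-TG control footprinting means is unchanged. In WT footprinting Prkar1a then has 3999, against 2681 for Prkar1b and 2571 for Prkacb, so the top of that order depends on the length used.

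The mRNA levels per kilobase put the same 3 genes at the top. In non-TG control RNA-Seq of the GS/DA LRRK2 TG table the means were 5446 for Prkacb (libraries 7463 and 3429), 5015 for Prkar1b (3353 and 6677) and 4609.8 for Prkar1a (4131 and 5089), which overlapped, followed by 2696 for Prkaca (1868 and 3524), 1714 for Prkar2b (2557 and 871) and 223 for Prkar2a (302 and 143). Here Prkaca overlapped Prkacb, Prkar1b and Prkar2b, and Prkar2a lay below every other subunit in both libraries. With the reference CDS length Prkar1a has the highest of these means (6460.2, against 5765 for Prkacb and 5002 for Prkar1b). In WT RNA-Seq the means were 2739 for Prkar1b, 2570.2 for Prkar1a, 2462 for Prkacb, 1594 for Prkaca, 798 for Prkar2b and 125 for Prkar2a.

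Within the catalytic class, Prkacb made up 65.8% of the footprints per kilobase in the non-TG control set beside GS/DA LRRK2 TG (libraries 64.7% and 66.9%), 65.0% of those in GS/DA LRRK2 TG, 64.8% in WT (61.8% and 67.1%) and 66.0% in LRRK2 KO (62.4% and 69.2%). In RNA-Seq the Prkacb share was 66.9% in non-TG control, but 80.0% in the deeper and 49.3% in the shallower library, and it was 65.9% in GS/DA LRRK2 TG (45.0% and 79.7%), 57.7% in GS LRRK2 TG (72.4% and 38.1%), 60.7% in WT (60.3% and 61.1%) and 57.7% in LRRK2 KO (63.0% and 52.5%). Both shares of Prkacb differed between libraries of a group, the mRNA share of the TG tables by the most. Type I subunits made up 83.3% of regulatory footprints per kilobase in the same non-TG control and 86.2% in WT. Prkar2b, the type II subunit that predominates in the brain, made up 89.1% and 88.3% of type II footprints in the same groups. Prkar1a made up 57.2% and 51.5% of type I footprints, or 65.3% and 59.9% with the reference CDS length. The catalytic subunits together had 0.60 footprints per regulatory footprint per kilobase in non-TG control and 0.58 in WT, and 0.52 in both with the reference CDS length; these ratios are of ribosome load and not of protein.

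In non-TG control of the GS LRRK2 TG table the log2 TE was 0.84 for Prkar1a, 0.63 for Prkar2b, 0.44 for Prkacb, 0.39 for Prkar2a, 0.20 for Prkaca and 0.15 for Prkar1b, against a median of −0.17 over all transcripts. These values lay between the 67.2 percentile (Prkar1b) and the 91.2 percentile (Prkar1a) of the table. In WT the log2 TE of the subunits ran from −0.27 in Prkaca and Prkar2a to 0.15 in Prkar1a, between the 73.7 and the 93.0 percentiles of the LRRK2 KO table, whose median was −0.64. By these group means the 6 subunits were above the median TE in both control groups and Prkar1a was the highest of them, but the order within the family moves with the RNA-Seq library taken and is not resolved. The folding energy listed for the 5′UTR, lower for a more stable fold, was −52.1 kcal/mol for Prkar1a, −58.8 for Prkar1b, −108.6 for Prkar2b, −112.4 for Prkaca, −115.8 for Prkacb and −179.9 for Prkar2a. It is labelled as a minimum by isoform, so it need not belong to the listed transcript. The median of the GS LRRK2 TG table was −91.2 kcal/mol, so the type I subunits had weaker folds than the median and the other 4 subunits had stronger ones.

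In GS LRRK2 TG against non-TG control, the footprints of the 6 subunits differed by between −0.11 and 0.09 on the log2 scale and their RNA-Seq means by between −0.32 and 0.08. The lowest RNA-Seq difference belonged to Prkar2b, and it gave this subunit the highest TE difference of the family, 0.38. TE was higher in GS LRRK2 TG for 4 subunits and lower for 2, with a median TE difference of 0.11 against 0.02 over all transcripts. In bulk tissue, fewer cells that make a subunit and less of its RNA per cell cannot be told apart.

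The catalytic subunits had footprinting means of 3368 in non-TG control and 3550.4 in GS LRRK2 TG for Prkaca (3554 and 3546 in the GS libraries) and of 7554 and 8039 for Prkacb (8823 and 7255). Their RNA-Seq means were 2938 and 3098 for Prkaca (GS libraries 2312 and 3884) and 5559 and 4988 for Prkacb (7159.8 and 2816). The footprinting libraries of Prkaca were close to each other, those of Prkacb lay on either side of the non-TG control mean, and the RNA-Seq libraries of both genes lay on either side of it. The TE differences from the group means were −0.00 for Prkaca and 0.25 for Prkacb.

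The type I regulatory subunits had footprinting means of 11994 and 11878 for Prkar1a (GS libraries 11735 and 12020.2) and of 6595 and 6479 for Prkar1b (6121 and 6837). Their RNA-Seq means were 6688 and 6267 for Prkar1a (5969 and 6564) and 5950.1 and 6282 for Prkar1b (4493 and 8070). Both GS LRRK2 TG libraries of Prkar1a RNA-Seq lay below the non-TG control mean, and the remaining 3 pairs of libraries lay on either side of it. The TE differences were 0.08 for Prkar1a and −0.10 for Prkar1b.

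The type II regulatory subunits had footprinting means of 382 and 353 for Prkar2a (346 and 359) and of 2823 and 2950.3 for Prkar2b (2771 and 3130.0). Their RNA-Seq means were 292 and 245 for Prkar2a (360.1 and 130.2) and 1825 and 1462 for Prkar2b (2317 and 608). Both footprinting libraries of Prkar2a were below the non-TG control mean, while the RNA-Seq libraries of both genes lay far on either side of it. The TE difference of Prkar2b (0.38) corresponds to a z score of 1.54, which is its distance from the mean of all transcripts in SDs of the table. At a z score of 1.5 or more, 1 of 6 subunits counted as TE up in GS LRRK2 TG, against 8.01% of all transcripts, and 0 of 6 counted as TE down at −1.5 or less, against 3.91%. The z score describes a place within the table and is no test. It was under 1.5 with any of the 4 GS LRRK2 TG libraries left out, and the TE difference itself turned with 1 of them. Without the shallower RNA-Seq library the z score of Prkar2b was −0.62 and the TE difference −0.28, while without the deeper one the z score was 1.15 at a larger TE difference, 1.65. Leaving out the deeper footprinting library gave 1.41 (TE difference 0.47), and leaving out the shallower gave 0.81 (0.29). The remaining z scores were 0.90 for Prkacb, 0.39 for Prkar2a, 0.13 for Prkar1a, −0.24 for Prkaca and −0.72 for Prkar1b.

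**Figure D2:**
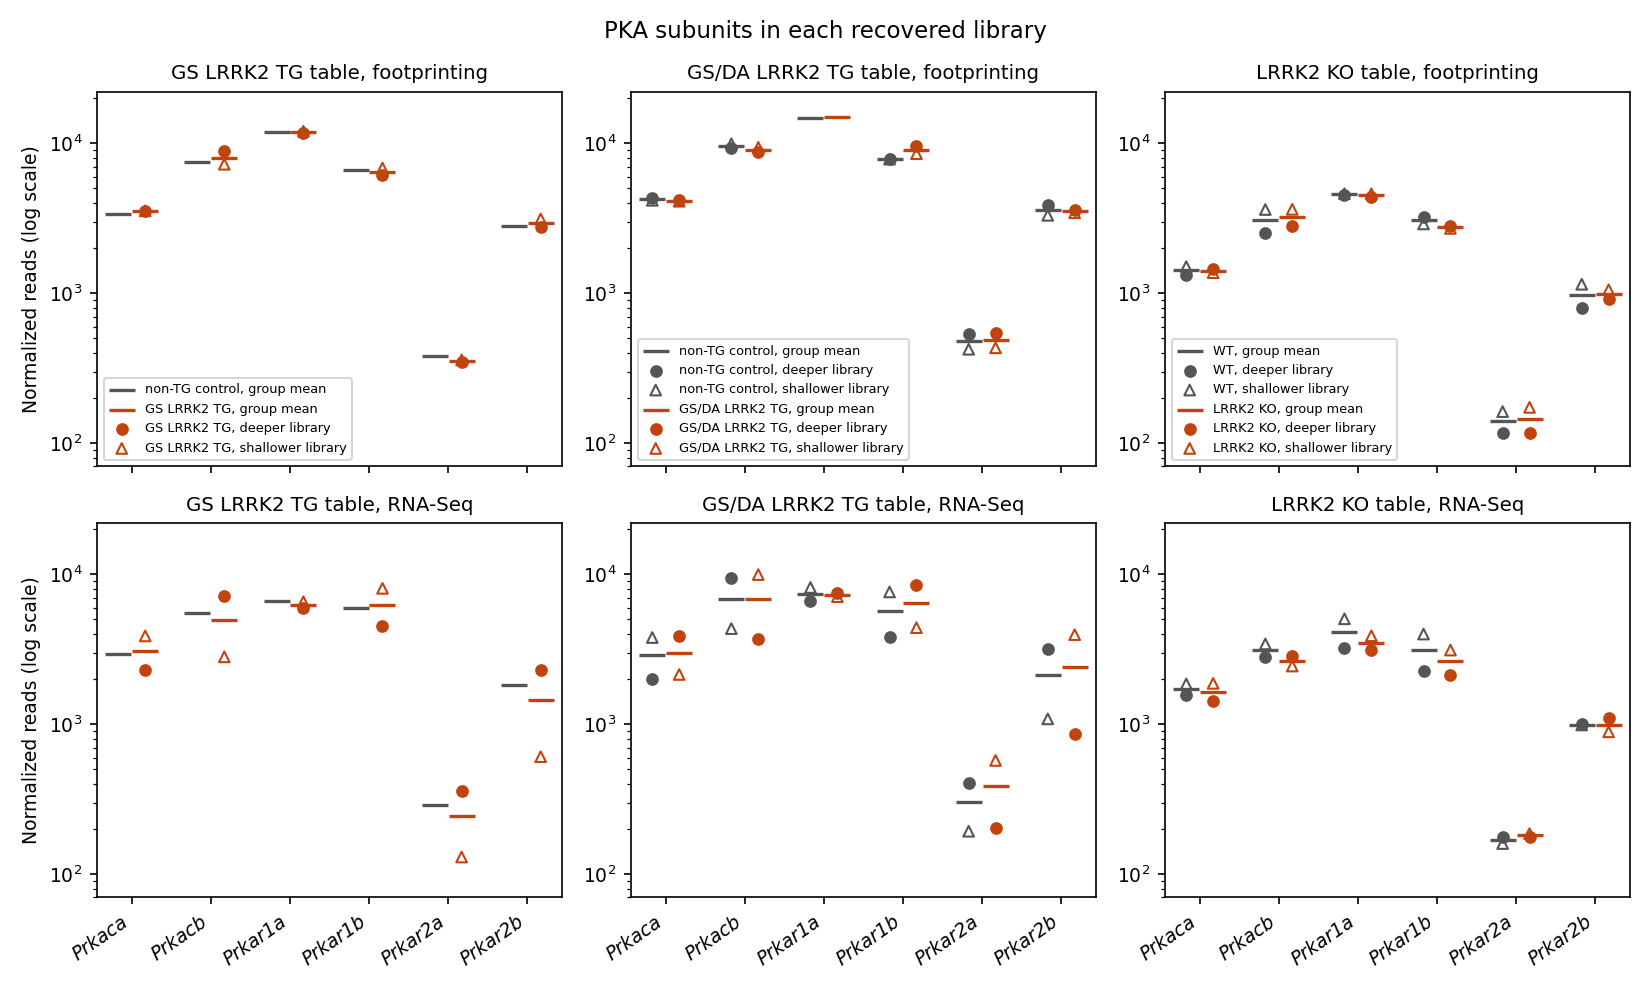
Normalized reads in CDS (vertical axis, log scale) of the 6 PKA subunits in the footprinting (top) and RNA-Seq (bottom) libraries of the 3 tables, with bars for group means, filled circles for deeper and open triangles for shallower libraries; libraries that could not be resolved have a bar only. In the TG tables the footprinting libraries of a group lie close together, and its RNA-Seq libraries lie far apart for the subunits other than Prkar1a.

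In GS/DA LRRK2 TG against non-TG control, Prkar1b stood at the top of the family in footprinting and Prkaca lay below its control in both libraries. Prkar1b had footprinting values of 7922 and 7844 in non-TG control and of 9559 and 8529.9 in GS/DA LRRK2 TG. Both GS/DA libraries were above both control libraries, and the log2 difference of the means was 0.20. Prkaca had 4348 and 4169.9 in non-TG control and 4165 and 4111 in GS/DA LRRK2 TG, so both GS/DA libraries lay below both control libraries, with a log2 difference of −0.04 and a gap between the nearest libraries that is far smaller than the gap within non-TG control. Of the 5 resolved subunits, 1 lay above in this way, against 11.97% of all transcripts, and 1 lay below, against 12.2%.

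The other footprinting values overlapped between the groups. Prkacb had 9379 and 9931 in non-TG control and 8740.1 and 9400.3 in GS/DA LRRK2 TG, with a log2 difference of −0.09. Prkar2a had 532 and 423 against 544 and 433, and Prkar2b had 3899.8 and 3312 against 3606 and 3443, with log2 differences of 0.03 and −0.03. For Prkar1a the footprinting means were 14813 and 15098, a log2 difference of 0.03. In RNA-Seq the groups overlapped for all 6 subunits: 0 of 6 had both GS/DA libraries above both control libraries, against 1.79% of all transcripts, and 0 of 6 had both below, against 1.58%. Such a count has little room where the libraries of a group stand far apart. Within pairs of RNA-Seq libraries matched by their shared difference, an alternative chosen after seeing the data, GS/DA LRRK2 TG was higher in both pairs for 3 of 6 subunits (Prkar1b, Prkar2a and Prkaca), against 21.7% of all transcripts, and lower in both for 0 of 6, against 16.05%. The log2 differences in the pairs were 0.20 and 0.16 for Prkar1b, 0.49 and 0.08 for Prkar2a and 0.10 and 0.03 for Prkaca.

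The RNA-Seq values of the catalytic subunits were 2008 and 3789 in non-TG control against 3857 and 2149 in GS/DA LRRK2 TG for Prkaca, and 9456 and 4345 against 3716 and 9966 for Prkacb. Those of the type I subunits were 6634 and 8173 against 7519 and 7094 for Prkar1a, and 3832 and 7632 against 8536 and 4407 for Prkar1b. Those of the type II subunits were 408 and 193 against 205 and 574 for Prkar2a, and 3191 and 1086 against 863 and 3958 for Prkar2b. Each group held a high and a low library for every subunit but Prkar1a, whose 4 values were close. The log2 differences of the RNA-Seq means were 0.05 for Prkaca, −0.01 for Prkacb, −0.02 for Prkar1a, 0.18 for Prkar1b, 0.37 for Prkar2a and 0.17 for Prkar2b.

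TE in GS/DA LRRK2 TG was higher for 2 subunits (Prkar1a 0.05, Prkar1b 0.02) and lower for 4 (Prkacb −0.08, Prkaca −0.09, Prkar2b −0.21, Prkar2a −0.34), with a median of −0.09 against −0.05 over all transcripts. At a z score of −1.5 or less, 1 of 6 subunits counted as TE down, Prkar2a at −1.52, against 7.36% of all transcripts, and 0 of 6 counted as TE up, against 3.65%. The z score of Prkar2a did not reach −1.5 with any of 6 of the 8 libraries left out, but for 2 of these the TE difference grew. Without the deeper RNA-Seq library the z score was −0.84 for non-TG control and −1.12 for GS/DA LRRK2 TG, at TE differences of −0.98 and −0.90. Without the shallower RNA-Seq library it was 0.44 and 0.38, at 0.10 and 0.59, so the sign turned. With footprinting libraries left out it was −0.37 without the deeper control (TE difference −0.16), −0.44 without the shallower GS/DA LRRK2 TG (−0.18), and −1.79 and −1.54 without the other 2. Prkar2b, above 1.5 in GS LRRK2 TG, had a z score of −0.75 here.

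A fit across all transcripts with limma, using 8 libraries, called 0 of 8333 transcripts (0%) at an adjusted p of 0.05 for TE, for footprinting and for RNA-Seq in GS/DA LRRK2 TG, and so 0 of the 5 subunits tested. At an unadjusted p under 0.05 limma counted 0 transcripts for TE, 3 for footprinting and 2 for RNA-Seq, with 0 subunits among them. For Prkar1b footprinting limma gave a log2 difference of 0.20 with a 95% interval from −0.96 to 1.35 and an adjusted p of 1.00, and for Prkar2a TE −0.25, from −2.29 to 1.79. The widest TE interval was that of Prkar2b, from −2.87 to 2.83 around −0.02. Since the fit takes 1 spread per transcript from footprinting and RNA-Seq together, the RNA-Seq libraries widen the footprinting intervals too. With footprinting libraries alone and a block for libraries matched between the groups, an alternative chosen after seeing the data, limma called 38 transcripts, 0 of them subunits, and Prkar1b had 0.20 with an interval from 0.01 to 0.38, an unadjusted p of 0.0376 and an adjusted p of 0.323. In that fit 1182 of 8333 transcripts had an unadjusted p under 0.05, and 1 of 5 subunits did. The main fit did not call Lrrk2 footprinting either, at a log2 difference of 2.17 from the group means. Missing the threshold therefore does not show that a subunit is unaltered.

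In LRRK2 KO against WT, the subunits' footprints differed by between −0.16 and 0.07 on the log2 scale, and Prkar1b was the one subunit whose libraries did not overlap, here with lower values. Prkar1b had footprinting values of 3245.0 and 2900.5 in WT and of 2799.7 and 2708 in LRRK2 KO. Both LRRK2 KO libraries were below both WT libraries, and the log2 difference of the means was −0.16. Of the 6 subunits 1 lay below in this way, against 6.40% of all transcripts, and 0 lay above, against 6.21%.

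The catalytic subunits had WT footprinting values of 1332 and 1507 against 1447 and 1372 in LRRK2 KO for Prkaca, and of 2534 and 3619.9 against 2832 and 3629.9 for Prkacb. Prkar1a had 4556 and 4609.8 against 4380.0 and 4608, Prkar2a 118 and 163 against 118 and 173, and Prkar2b 801 and 1148 against 909.96 and 1056. These 5 subunits overlapped between the groups, and in Prkacb, Prkar1a, Prkar2a and Prkar2b the shallower library was the higher one in both WT and LRRK2 KO. The share of all transcripts that lie on this side in both groups was not counted. The log2 differences of the means were −0.01 for Prkaca, 0.07 for Prkacb, −0.03 for Prkar1a, 0.06 for Prkar2a and 0.01 for Prkar2b.

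The RNA-Seq means were lower in LRRK2 KO for 5 subunits. Prkacb had 2804 and 3435 in WT and 2875 and 2446 in LRRK2 KO, with a log2 difference of −0.23. Prkar1a had 3204 and 5052 against 3125 and 3891 (−0.23), and Prkar1b had 2263 and 3998 against 2132 and 3126 (−0.25). In these 3 genes the highest value was a WT library and the lowest a LRRK2 KO library, but the groups overlapped. Prkaca had 1569 and 1858 against 1431 and 1876 (−0.05), Prkar2a 177 and 160.2 against 176 and 187 (0.11), and Prkar2b 1002 and 989.9 against 1099.9 and 891 (−0.00). None of the 6 subunits had LRRK2 KO RNA-Seq libraries all above or all below WT, a state that held for 7.04% of all transcripts above and 7.03% below. Within matched pairs of libraries LRRK2 KO was lower in both pairs for 2 of 6 subunits, Prkar1a (−0.04 and −0.38) and Prkar1b (−0.09 and −0.35), against 23.6% of all transcripts, and higher in both for 0 of 6, against 24.5%.

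TE in LRRK2 KO was higher for 5 subunits (Prkacb 0.30, Prkar1a 0.21, Prkar1b 0.09, Prkaca 0.04, Prkar2b 0.01) and lower for Prkar2a (−0.05), with a median of 0.07 against 0.02 over all transcripts. No subunit reached a z score of 1.5 or −1.5: 0 of 6 counted as up, against 6.23% of all transcripts, and 0 of 6 as down, against 6.02%, with Prkacb nearest at 1.03. In limma 0 of 9522 transcripts (0%) were called for TE, for footprinting and for RNA-Seq, with 4, 17 and 9 at an unadjusted p under 0.05 and 0 subunits among them. The limma TE difference of Prkacb was 0.31 with a 95% interval from −0.61 to 1.23 and an adjusted p of 1.00, and that of Prkar1b footprinting −0.16, from −0.94 to 0.62. With a block for matched libraries limma called 5 transcripts for footprinting and 4 for RNA-Seq, 0 of them subunits. Nothing in these files shows that the p-values measure biological spread beyond these libraries of pooled mice.

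**Figure D3:**
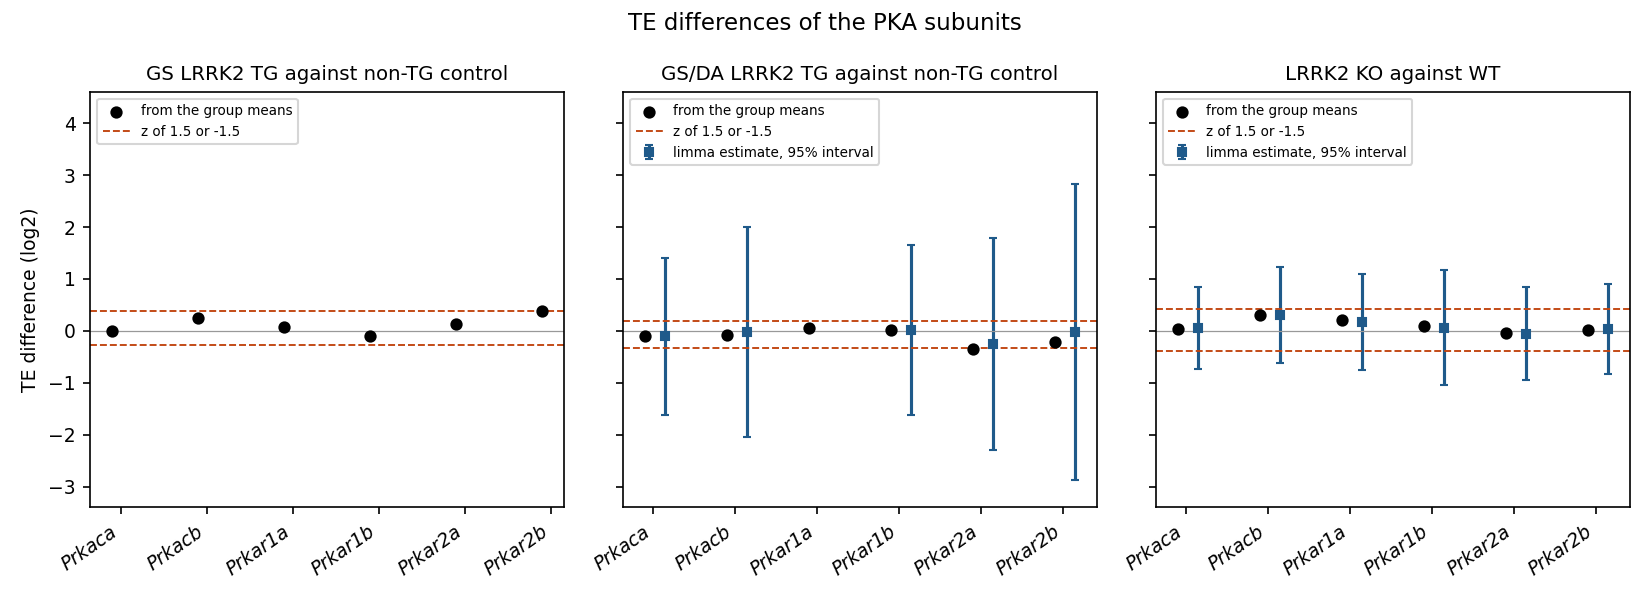
TE differences (log2, vertical axis) of the 6 PKA subunits in the 3 comparisons, from the group means (circles) and from limma with the 95% interval (squares and bars), with dashed lines at z scores of 1.5 and −1.5. The group means put Prkar2b at the upper line in GS LRRK2 TG and Prkar2a at the lower line in GS/DA LRRK2 TG, and every limma interval includes 0.

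Set side by side, the TE differences of the genotypes GS, GS/DA and KO were −0.00, −0.09 and 0.04 for Prkaca, 0.25, −0.08 and 0.30 for Prkacb, 0.08, 0.05 and 0.21 for Prkar1a, −0.10, 0.02 and 0.09 for Prkar1b, 0.14, −0.34 and −0.05 for Prkar2a, and 0.38, −0.21 and 0.01 for Prkar2b. These values ran from −0.34 (Prkar2a, GS/DA) to 0.38 (Prkar2b, GS), and limma called 0 of those it tested, with 0 at an unadjusted p under 0.05. The same fit did not call Lrrk2 footprinting either, at log2 differences of 2.17 in GS/DA and −2.12 in KO. Counts of 0 from this fit therefore say little about the subunits. Under the alternatives, which include leaving out a library, every one of these TE differences but that of Prkar1a in GS took both signs. That value had 7 alternatives, none of which left out a control library, against 20 for Prkar1a in KO. Prkacb ran from −0.28 to 1.07 in GS and from −0.16 to 0.78 in KO, and Prkar1a from −0.35 to 0.71 in KO. The footprinting differences in the same order were 0.08, −0.04 and −0.01 for Prkaca, 0.09, −0.09 and 0.07 for Prkacb, −0.01, 0.03 and −0.03 for Prkar1a, −0.03, 0.20 and −0.16 for Prkar1b, −0.11, 0.03 and 0.06 for Prkar2a, and 0.06, −0.03 and 0.01 for Prkar2b. No footprinting difference of a subunit exceeded 0.20 in size in any comparison.

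Transcripts with differences most like those of each subunit were sought among the 1675 with all group means at least 500, by the distance over 6 log2 differences (footprinting and RNA-Seq in 3 comparisons, of which GS and GS/DA share control samples). Prkaca was nearest to Prdx6 (0.0454) and Ndufb6 (0.0473), Prkacb to Fam49b (0.0509) and Psma1 (0.0902), and Prkar1a to Ywhae (0.0754) and Zcchc18 (0.0811). Prkar1b was nearest to the tubulins Tuba1a (0.0977) and Tuba1b (0.102), Prkar2a, whose own level is under that minimum, to Sbno1 (0.111) and Trim2 (0.140), and Prkar2b to SGIP1alpha (0.0938) and Anp32a (0.101). The median distance to all of these transcripts was between 0.324 (Prkaca) and 0.521 (Prkar2a).

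Around the subunits, the PKA inhibitors and the anchoring proteins act on the enzyme itself. Of the inhibitor peptides, 2 of 3 were listed: Pkia had TE differences of 0.09, −0.16 and 0.35 for the genotypes GS, GS/DA and KO, and Pkig 0.01, −0.27 and −0.27. Of 18 symbols for A-kinase anchoring proteins, 12 were listed in the TG tables and 14 in the LRRK2 KO table. TE was higher for 10 and lower for 2 in GS LRRK2 TG (median 0.18), higher for 2 and lower for 10 in GS/DA LRRK2 TG (median −0.26), and higher for 9 and lower for 5 in LRRK2 KO (median 0.04), against medians of 0.02, −0.05 and 0.02 over all transcripts. By z score, 2 of 12 counted as up in GS LRRK2 TG (8.01% of all transcripts), 4 of 12 as down in GS/DA LRRK2 TG (7.36%) and 1 of 14 as down in LRRK2 KO (6.02%); the shares were not compared by a test. Akap5, which anchors PKA at synapses, had the largest TE difference in GS LRRK2 TG, 1.23, made up of a footprinting difference of 0.06 and an RNA-Seq difference of −1.18, and had −1.01 in GS/DA LRRK2 TG, from 0.04 in footprinting and 1.05 in RNA-Seq. These counts and values rest on the RNA-Seq means of the TG tables, whose libraries stand far apart, and were not examined with a library left out. Akap8l had the smallest, −0.12, and Mtap2, the microtubule protein that binds type II PKA and has the highest level on the list, had 0.28.

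Upstream, adenylyl cyclases make cAMP, phosphodiesterases remove it, and receptors and G proteins set the balance. Of the cyclases 5 of 10 were listed in the TG tables and 6 in the LRRK2 KO table, with median TE differences of −0.12, −0.09 and −0.25 in the 3 comparisons; in GS LRRK2 TG, Adcy1 had 0.27, Adcy9 −0.16 and Adcy5, the main striatal cyclase, −0.16. Of the phosphodiesterases 11 of 16 (13 in the LRRK2 KO table) had medians of 0.11, −0.02 and 0.07, with 1 of 13 counted as up in LRRK2 KO (6.23% of all transcripts); Pde8a had 0.28, Pde1a −0.20 and Pde1b −0.13 in GS LRRK2 TG. Of the receptors and G proteins 6 of 7 were listed, with medians of 0.06, −0.12 and 0.12; Gnal, the G protein that couples striatal receptors to cyclase, had 0.27, Adora2a −0.13 and Gnas 0.12 in GS LRRK2 TG.

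Downstream, 8 of 8 PKA substrates were listed, with median TE differences of 0.04, −0.06 and −0.05 and 1 of 8 counted as up in LRRK2 KO (6.23% of all transcripts). Gria1, a glutamate receptor subunit, had 0.15 in GS LRRK2 TG, Rasgrp2 −0.10 and Ppp1r1b 0.05. The footprinting means of Ppp1r1b were 32311 and 30448 in the GS comparison, 42124 and 34282 in the GS/DA comparison and 9040.0 and 9472 in the KO comparison. Of other cAMP effectors and PKA relatives, 1 of 3 was listed, Rapgef3, with TE differences of −0.07, −0.23 and 0.07. Among the genes of these lists that limma could test, 0 were called for TE, footprinting or RNA-Seq in GS/DA LRRK2 TG or LRRK2 KO, and 0 had an unadjusted p under 0.05. In GS/DA LRRK2 TG it could test 11 anchoring proteins, 8 phosphodiesterases, 6 substrates, 4 cyclases and 4 receptors and G proteins, and in LRRK2 KO all that were listed but 1 substrate.

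The cell make-up of the samples was read from marker lists, since PKA subunits differ between cell types. Striatal neuron markers were present, 11 of 13 symbols (Drd1 and Penk1 are aliases that were not listed), with Ppp1r1b the most abundant; their summed footprinting means were 128347 and 120175 in non-TG control and GS LRRK2 TG, 170900 and 141880.4 in non-TG control and GS/DA LRRK2 TG, and 38233 and 39737 in WT and LRRK2 KO. The labelled tissue thus shows its markers. The 3 cortical excitatory markers in the TG tables (Slc17a7, the most abundant, Neurod6 and Tbr1) summed to 1612 and 1366 in the GS comparison and 1343 and 3339 in the GS/DA comparison. In GS/DA LRRK2 TG both footprinting libraries (4104 and 2574) and both RNA-Seq libraries (4030.5 and 2408) were above both non-TG control libraries (1630 and 1056, and 915 and 1965). The cortical markers stood higher in the same libraries as the Prkar1b footprints, and in limma 1 of the 3 had an unadjusted p under 0.05 for footprinting (0.0193) and 1 for RNA-Seq (0.0410). Neither was called after adjustment, and of all 8333 transcripts 3 and 2 had such an unadjusted p. The part of the cortical markers, and of the lower striatal marker sum in GS/DA LRRK2 TG, in the Prkar1b result was not tested.

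Among the glia, astrocyte markers (7 of 7, Aldoc the most abundant in non-TG control and WT) had footprinting sums of 28729.6 and 30054 in the GS comparison, 35869 and 38007 in the GS/DA comparison and 7318 and 7224 in the KO comparison. Microglia markers (Csf1r the most abundant; 5 of 7, without Aif1 and P2ry12, and 6 in the LRRK2 KO table) had 2582 and 2732, 3155 and 3441, and 412 and 466; in the LRRK2 KO table they were 707 in the deeper and 116 in the shallower WT library and 812 and 120.3 in those of LRRK2 KO. None of 4 endothelial markers (Cldn5, Pecam1, Flt1, Kdr) was listed in any table.

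Of the choroid plexus markers only Ttr was listed (1 of 4; Kl, Folr1 and Kcne2 were not), with footprinting means of 3944 and 723 in the GS comparison, 9125 and 3149 in the GS/DA comparison (libraries 1193 and 17056 against 5162 and 1137) and 84.5 and 91.6 in the KO comparison. Blood markers (3 of 5, without Hbb-b2 and Hba-a1, Hba-a2 the most abundant) had 15389 and 14458, 22037 and 17634, and 3369.6 and 2126. Y-linked genes (3 of 5, without Eif2s3y and Jarid1d, Ddx3y the most abundant) had 1001 and 1123, 1315 and 909, and 367 and 317. The Y-linked sums differed between libraries of a group, with 10.9 and 722 in the WT and 17.8 and 615 in the LRRK2 KO footprinting libraries, so the pools of a group were not alike in these genes, although the authors describe both sexes in each pool. Prkacb, Prkar1a, Prkar2a and Prkar2b had higher footprinting values in the shallower libraries of both groups of the LRRK2 KO table, which are those with more Y-linked and fewer microglial footprints. For Prkar1a the log2 ratios of the deeper to the shallower library were only −0.02 in WT and −0.07 in LRRK2 KO. Over all transcripts the median was −0.01 in each group. Transcripts of like GC content lay on the same side in WT, with medians from −0.21 (Prkacb, Prkar1a) to −0.11 (Prkar2b). The part of cell make-up and sex in the values of the subunits was not tested.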

How the data were processed

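The deposited tables hold, per transcript, DESeq-normalized mean signal of ribosome footprinting and RNA-Seq in each group, made by the authors from reads with at most 1 mismatch (CASAVA 1.8, TopHat2 2.0.11, Bowtie2 2.2.2, DESeq 1.20, genome mm9), counted in the union of CDS, with transcripts of few reads then discarded. A further deposited column is a score, the energy (kcal/mol) predicted for 5′UTR folding, taken by the authors from UCSC and labelled as a minimum by isoform. The authors' own TE, TE difference and z columns were not used, and 0 columns with values of single samples exist. Footprints came from RNase I digestion and RNA-Seq from total RNA of the same lysate. The ventral midbrain footprinting samples of WT and LRRK2 KO (1 each) are in no table.

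A mean of 2 libraries can take only values set by whole read counts and 2 size factors, which recovered 10 of 12 columns (between 97.9% and 99.9% of transcripts resolved, and between 0.0117% and 0.956% after shifting the values by a constant). Labels name 3 non-TG control, WT and LRRK2 KO footprinting samples and 3 non-TG control RNA-Seq samples, yet the recovered means split into 2 libraries. The authors describe 2 results per group analyzed jointly and list sample 3 of WT and of LRRK2 KO apart, without RNA-Seq; the files themselves do not name the samples averaged. Libraries carry no replicate number. For the replicate block they were matched by their shared difference between libraries: in the GS/DA table Spearman's rho over transcripts was 0.739 for footprinting and −0.977 for RNA-Seq, and for LRRK2 KO against WT it was 0.763 and 0.684.

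Tests used limma 3.58.1 in R 4.3.3 on log2 values with 10 added, with the genotype by assay interaction for TE and Benjamini-Hochberg adjustment over all 8333 and 9522 transcripts resolved in every column. Python 3.11.15, numpy 2.4.6, pandas 2.3.3 and scipy 1.17.1 did the rest. CDS came from the GENCODE annotation of this build, to which 96.4%, 96.4% and 96.3% of the transcripts of the 3 tables matched by symbol. Alternatives were a pseudocount of 1, a minimum group mean of 256, median centring, an intensity trend, the replicate block, each assay alone, each library left out, and for single values library means on the log scale, a pseudocount of 10, median and GC correction in 20 bins, and each library pair. The genes named are the 6 subunits, in each pathway list those with the largest and smallest TE difference in GS LRRK2 TG and the highest level, and the 2 nearest transcripts of each subunit. The subunits and the lists were chosen with earlier results of these data known. Single values without a test (levels, shares, z scores) are descriptions, and read counts cover counting error only.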

Additional observations from a re-analysis of the deposited data

Results flagged for a closer look

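Prkar1b footprinting differed in opposite ways between 2 genotypes, each against its own control. In GS/DA LRRK2 TG both libraries lay above both non-TG control libraries, with a log2 difference of 0.20, and in LRRK2 KO both lay below both WT libraries, with −0.16. This was 1 of 5 and 1 of 6 subunits, and among all transcripts 11.97% lay above in GS/DA LRRK2 TG and 6.40% below in LRRK2 KO, so 1 such subunit does not set the family apart. Where no libraries overlap, leaving out a library or taking single pairs cannot turn the sign, and the values then ran from 0.11 to 0.29 and from −0.26 to −0.05. The Prkar1b RNA-Seq means lay on the same side as the footprints in both comparisons (0.18 and −0.25), with TE differences of 0.02 and 0.09. The RNA-Seq libraries overlapped between the groups, however. Under the alternatives the RNA-Seq difference took both signs, from −0.79 to 1.16 in GS/DA LRRK2 TG and from −0.91 to 0.47 in LRRK2 KO. The cortical excitatory markers were also higher in the GS/DA LRRK2 TG footprints, 3339 against 1343, and the summed striatal neuron markers were lower. The part of either marker list was not tested. Limma called neither Prkar1b difference, and the difference between the comparisons was not tested, since the tables were normalized separately. In GS LRRK2 TG the Prkar1b footprinting difference was −0.03.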

How the results depend on the processing

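The limma counts of 0 stood under 42 alternatives in GS/DA LRRK2 TG, with 1 exception, and under 39 in LRRK2 KO, with 4. The exceptions all use the replicate block: in LRRK2 KO 5 transcripts for footprinting and 4 for RNA-Seq, and, with each assay alone (chosen after seeing the data), 15 and 11 in LRRK2 KO and 38 for footprinting in GS/DA LRRK2 TG. The cause was not tested, and 0 subunits were called under any of these. Since the main fit did not call Lrrk2 either, these counts of 0 do not show that the subunits are unaltered.

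The z score of Prkar2b in GS LRRK2 TG (1.54) was 1.75 with the GC correction and between −0.62 and 1.41 with a library left out, at TE differences from −0.28 to 1.65. That of Prkar2a in GS/DA LRRK2 TG (−1.52) was −1.88 with the GC correction and between −1.79 and 0.44 with a library left out, at TE differences from −0.98 to 0.59. It was 0.42 and 0.73 with the opposite matching of libraries that takes the deeper control RNA-Seq library. The z score alternatives were chosen after seeing the data. Where a group was left with 1 library, that library was assumed to vary like the others. Signs turned under alternatives: that of the Prkar2b TE difference in GS/DA LRRK2 TG held in 14 of 20 (−2.05 to 2.01), and that of its footprinting difference in LRRK2 KO in 6 of 12 (−0.34 to 0.40). Depth limits Prkar2a most, at 83 reads in its thinnest library.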
